A study of Mus musculus with 26 samples.

Results

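Microglia sorted from 2 regions of the mouse brain were examined for transcripts that belong to neurons, astrocytes and oligodendrocytes. The 37 genes are a list of known cell markers: 13 of neurons in general, 3 of cortical neurons, 7 of striatal neurons, 8 of astrocytes and 6 of oligodendrocytes. They were found through the RefSeq transcript accession of their probes, and they are 37 of the 36750 genes with a probe, of which 21122 could be named in this way. Each gene was followed through 1 probe, the one with the highest mean over the 26 arrays, because 25 members had 1 probe and 12 had more.

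The microglia were EGFP-positive cells of C57BL/6 mice that carry EGFP in 1 copy of Cx3cr1 (CX3CR1EGFP/+), and the TLR-DKO mice carried this reporter too. TLR-DKO is known from the study as the loss of Tlr2 and Tlr4. Tissue was a 1.5 mm punch of the nucleus accumbens (NAc) or the medial prefrontal cortex (mPFC), taken 90 min after the last session of repeated social defeat stress (R-SDS) or of cage transfer (naive). The 8 groups were TLR-DKO NAc R-SDS (4 arrays), TLR-DKO NAc naive (3), WT NAc R-SDS (3), WT NAc naive (3), TLR-DKO mPFC R-SDS (3), TLR-DKO mPFC naive (4), WT mPFC R-SDS (3) and WT mPFC naive (3). The labels describe the stressed TLR-DKO mice as resilient and the stressed WT mice as susceptible. Each sample pooled the cells of 3 to 6 mice and gave 500 pg of RNA, which was amplified before labelling. The labels used here do not tie a sample to a litter or experiment, so p-values measure the spread between these pools. The reporter is also active in macrophages along brain vessels, which the sort on EGFP does not remove.

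The RNAs used here as markers of neurons, astrocytes and oligodendrocytes include those of synaptic vesicles, of myelin and of glutamate uptake. Microglia take up synapses, myelin and dying cells, and their processes touch neurons and astrocytes closely. Where the RNA measured here came from, the microglia themselves included, was not tested. In a pooled sample, fewer cells of a type and less RNA per cell cannot be told apart.

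A level is the log2 of the background-subtracted signal minus the 75th percentile of its array, so 0 is that percentile. Levels of different probes are not comparable, and a value that is not well above background has no order below the faintest signals measured. The 75th percentile ranged from 80.7 to 341.1 signal units, and 50 to 71.0% of the non-control spots were well above background. The array WT mPFC R-SDS replicate 3 had the lowest percentile and the lowest weight (0.249) when weights were estimated from the spread. The 13 microglial markers on a list of their own were well above background on all 26 arrays. One of them was Cx3cr1, with a lowest, median and highest level of 8.04, 8.37 and 8.81 in the 13 NAc arrays and of 7.98, 8.39 and 9.70 in the 13 mPFC arrays. Tlr2, the target that tells the genotypes apart here, was detected above background on 0 of 14 TLR-DKO and on 12 of 12 WT arrays. In TLR-DKO its level was lower by a factor of at least 41.9 (adjusted p = 8.06e-14 in limma). Tlr4 was well above background on all 14 TLR-DKO and all 12 WT arrays, with a difference of 0.19 ± 0.26 (SE; adjusted p = 0.882), and the position of its probe relative to the deletion is not in the files used.

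Transcripts of neurons and of macroglia were measurable in every sample, but most of the genes were so on part of the arrays. Of the 37 genes, 14 were well above background on all 26 arrays, 10 on 13 to 25 arrays, 13 on 1 to 12 arrays and 0 on none. The share on all arrays was 37.8%, against 37.1% of the 21122 genes named through RefSeq, so on this measure the members were close to other genes. The share on no array was 0 of 37, against 11.4% of the named genes. Of 66 further markers of the same cell types, 23 (34.8%) were well above background on all arrays and 5 on none. The share detected on some arrays but not all was 62.2% of the members, against 51.5% of the named genes.

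**Figure D1:**
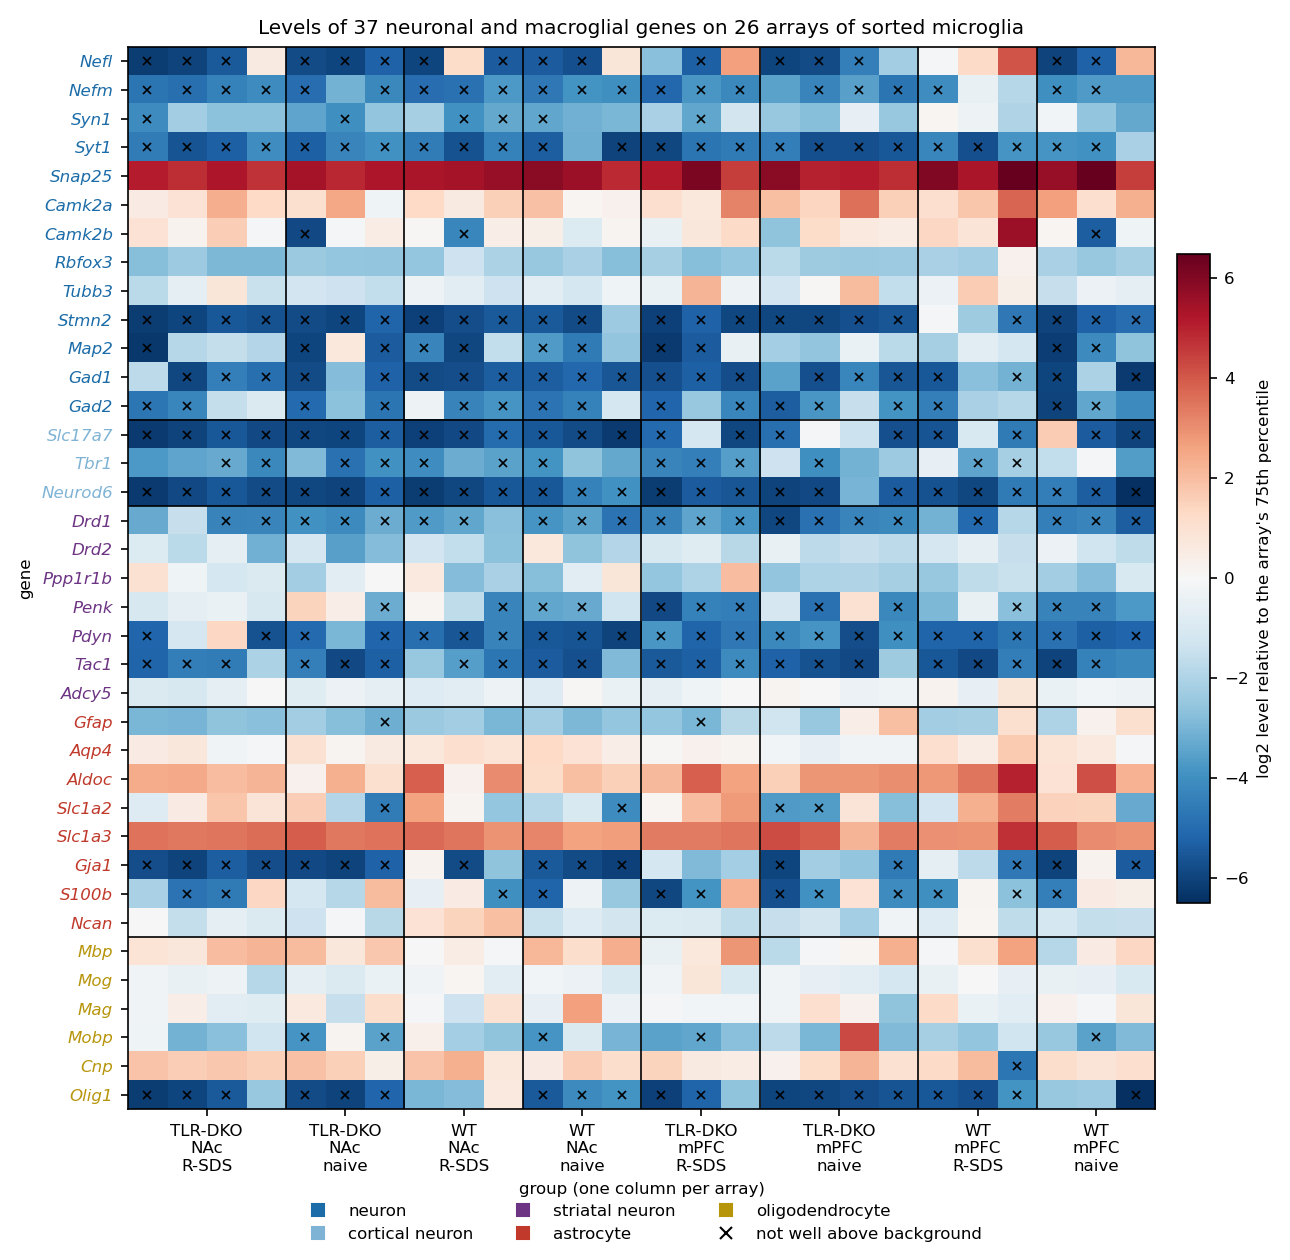
Log2 level of each of the 37 genes (rows, coloured by cell class) on each of the 26 arrays (columns, by group), relative to the array's 75th percentile; a cross marks a value not well above background. Rows without a cross, such as Snap25 and Slc1a3, are the 14 genes well above background on all arrays, while genes such as Neurod6 and Syt1 carry crosses nearly everywhere.

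Among the 13 general neuronal genes, 4 were well above background on all arrays, 3 on 13 to 25 and 6 on 1 to 12. Snap25, a SNARE protein of synaptic vesicle release, had a lowest, median and highest level of 4.68, 5.27 and 5.85 in NAc arrays, against 4.49, 5.30 and 6.57 in mPFC arrays. Its levels overlapped fully between the regions, with an SD of 0.57 between arrays of a group. Camk2a, the alpha subunit of the calcium/calmodulin-dependent kinase of synapses, ran from -0.27 over 1.06 to 2.49 in NAc and from 0.68 over 1.80 to 3.76 in mPFC. Camk2b, the beta subunit of that kinase, spanned 11.41 log2 units over the 26 arrays, more than any other member. It was well above background on 11 of 13 NAc and 12 of 13 mPFC arrays, from -5.87 over 0.19 to 1.59 in NAc and from -5.35 over 0.64 to 5.55 in mPFC. Rbfox3, the nuclear protein NeuN of mature neurons, and Tubb3, the neuronal beta-tubulin, completed the 4. The axonal and inhibitory genes were intermittent. Nefl, the light chain of neurofilaments, was above background on 3 of 13 NAc and 7 of 13 mPFC arrays, and Nefm, the medium chain, on 1 and 4. Syn1, a synapsin on synaptic vesicles, was so on 8 and 12, and Map2, a dendritic microtubule protein, on 6 and 9. The GABA-synthesising enzymes Gad1 and Gad2 were so on 2 and 5 NAc arrays and on 3 and 5 mPFC arrays. Stmn2, a growth-cone microtubule protein, was found on 3 of 26 arrays, and Syt1, the vesicle calcium sensor, on 2.

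The cortical and striatal genes were chosen because their cells lie mainly in one of the 2 regions. None of the 3 cortical genes was well above background on all arrays. Slc17a7, the vesicular glutamate transporter of cortical projection neurons, was well above background on 0 of 13 NAc arrays and 5 of 13 mPFC arrays. Its lowest, median and highest levels were -6.23, -5.89 and -4.98 in NAc, against -6.04, -4.89 and 1.65 in mPFC, where 4 arrays lay between -1.40 and -0.07 and 1 at 1.65. Each of the 4 mPFC groups held at least 1 of these 5 arrays. Tbr1, a transcription factor of deep-layer cortical neurons, was detected on 6 NAc and 7 mPFC arrays, at -4.83, -3.47 and -2.62 in NAc and -4.43, -3.08 and -0.14 in mPFC. Neurod6, a transcription factor of cortical excitatory neurons, was above background on 1 array, TLR-DKO mPFC naive replicate 3, at -3.00.

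Of the 7 striatal genes, 3 were well above background on all 26 arrays in both regions: Drd2, the dopamine receptor of indirect-pathway neurons, Ppp1r1b, the phosphatase inhibitor DARPP-32, and Adcy5, the adenylyl cyclase of medium spiny neurons. Drd2 had levels of -3.51, -1.73 and 0.69 in NAc, against -1.81, -1.28 and -0.36 in mPFC. Ppp1r1b had -2.80, -0.74 and 0.98 in NAc, against -2.80, -2.03 and 2.01 in mPFC, where its highest array was TLR-DKO mPFC R-SDS replicate 3. Adcy5 was the steadiest member, at -1.03, -0.65 and 0.09 in NAc and -0.64, -0.30 and 0.79 in mPFC. Penk, the enkephalin precursor of indirect-pathway neurons, was detected on 9 NAc and 5 mPFC arrays. Pdyn, the dynorphin precursor of direct-pathway neurons, was detected on 3 NAc and 0 mPFC arrays, reaching 1.36 on TLR-DKO NAc R-SDS replicate 3. Tac1, the substance P precursor, was detected on 3 NAc and 2 mPFC arrays, and Drd1, the dopamine receptor of direct-pathway neurons, likewise on 3 and 2. Pdyn and Tac1 were above background together on 0 arrays. All 3 arrays with Pdyn also had Penk, and so did 4 of the 5 with Tac1. The arrays are few, and these overlaps were not tested.

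Several macroglial genes were present throughout, as 4 of 8 astrocyte genes and 3 of 6 oligodendrocyte genes were well above background on all 26 arrays. Slc1a3, the glutamate transporter GLAST, had levels of 2.61, 3.46 and 3.94 in NAc, against 2.21, 3.36 and 4.75 in mPFC. Aldoc, the brain aldolase of astrocytes, had 0.26, 2.00 and 3.86 in NAc, against 0.94, 2.85 and 4.98 in mPFC. Aqp4, the water channel of astrocyte endfeet, had -0.23, 0.70 and 1.29 in NAc, against -0.55, 0.20 and 1.72 in mPFC. Ncan, the matrix proteoglycan neurocan, was the fourth of these. Gfap, the intermediate filament of astrocytes, was found on 12 of 13 arrays of each region, Slc1a2, the glutamate transporter GLT-1, on 11 of 13 in each, and S100b, a calcium-binding protein, on 9 NAc and 5 mPFC arrays. Gja1, the gap-junction protein connexin 43, was found on 2 NAc and 8 mPFC arrays.

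Among the oligodendrocyte genes, Mbp, myelin basic protein, had levels of -0.08, 1.12 and 2.37 in NAc, against -1.83, 0.52 and 2.87 in mPFC. Mag, the myelin-associated glycoprotein, had -1.51, -0.25 and 2.66 in NAc, against -2.59, -0.10 and 1.23 in mPFC, and Mog, a glycoprotein on the outside of myelin, was the other gene found on all arrays. Cnp, the myelin phosphodiesterase, was missing above background on 1 array, WT mPFC R-SDS replicate 3, where it stood at -4.71. It otherwise ran from 0.40 over 1.59 to 2.32 in NAc and had a median of 1.11 and a highest level of 2.22 in mPFC. Mobp, another myelin protein, was found on 10 NAc and 11 mPFC arrays, with its highest level of 4.28 on TLR-DKO mPFC naive replicate 3. Olig1, the transcription factor of the oligodendrocyte lineage, was found on 4 NAc and 3 mPFC arrays.

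Genes of 1 class had low correlations over the arrays, in a set with many values not above background. The levels of the 27 members that could be tested had a median range of 4.72 log2 units over the 26 arrays, against 3.30 for all 24684 genes tested, and 9 of them exceeded the 90th percentile of those genes (6.66). Over all 37 members, deviations from the group means had a median correlation of 0.06 between 145 pairs of genes of 1 class, from -0.66 to 0.62. It was 0.04 between 521 pairs of different classes. The 10 untested members are included and were not well above background on most arrays, where values have no order. Low correlations can therefore not show that genes of 1 class varied apart. The pairs share arrays, so no test is given. The mean level of the neuronal genes and that of the astrocyte genes had an r of 0.41 over 26 arrays (rho 0.24), and 0.17 without the 2 arrays farthest from the median. Nefl and Nefm, partners in 1 filament, were above background together on 3 arrays, which is 3 of the 10 with Nefl and 3 of the 5 with Nefm.

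Probes of 1 gene often disagreed. For the 12 members with several probes, the 18 further probes had a median r of 0.12 with the brightest probe over the 26 arrays, from -0.23 (Mbp) to 0.62 (Map2), and 5 of 18 reached 0.3. Both probes of Camk2a were well above background on all arrays and had an r of 0.07, and the same r was found for the probes of Aqp4 on 26 and 23 arrays. A single-probe value below therefore describes that probe.

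The number of members well above background ranged from 18 to 30 of 37 on single arrays and overlapped between all groups. The group means were 25 ± 1.4 (SD, n = 4) in TLR-DKO NAc R-SDS, 21.7 ± 4.0 (n = 3) in TLR-DKO NAc naive, 24.0 ± 1.7 (n = 3) in WT NAc R-SDS and 22.7 ± 4.5 (n = 3) in WT NAc naive. They were 22.3 ± 2.5 (n = 3) in TLR-DKO mPFC R-SDS, 24.5 ± 2.5 (n = 4) in TLR-DKO mPFC naive, 27 ± 3.0 (n = 3) in WT mPFC R-SDS and 25 ± 3.5 (n = 3) in WT mPFC naive. Over 26 arrays the number was higher where more of all spots were well above background (r 0.53, rho 0.44), and r was 0.33 without the 2 arrays farthest from the median share. Its part in any difference below was not tested.

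**Figure D2:**
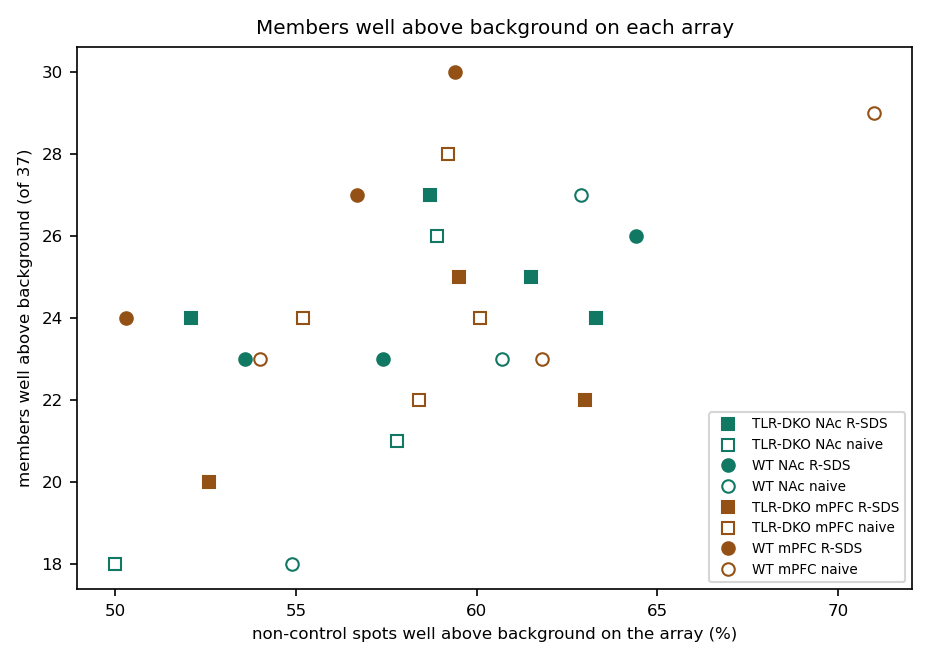
Number of the 37 members well above background on each array (vertical) against the percentage of all non-control spots well above background on that array (horizontal), by group. The 2 arrays with 18 members, both from naive NAc, stood at 50 and 54.9% of spots, and the array with 30, WT mPFC R-SDS replicate 2, at 59.4%.

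Comparisons between groups were made with limma on 24684 genes, each detected above background on 3 or more arrays in 1 or more groups, with Benjamini-Hochberg adjustment over all of them. Of the 37 members, 27 passed and 10 did not (Nefm, Syt1, Stmn2, Gad1, Gad2, Slc17a7, Neurod6, Drd1, Pdyn and Tac1). The 14 members found on all arrays passed through all 8 groups, 8 passed through several, and 5 passed through 1 group only. These 5 were Nefl (WT mPFC R-SDS), Penk (TLR-DKO NAc R-SDS), Gja1 (TLR-DKO mPFC R-SDS), S100b (TLR-DKO NAc naive) and Olig1 (WT NAc R-SDS), and a difference from that group was favoured by the filter. In all 17 comparisons, 0 of the 27 members passed an adjusted p of 0.05. Differences given for them below are therefore values that did not pass, except where another setting is named.

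The first comparison was of the members' levels in NAc and in mPFC, whose neurons differ. Averaged over 4 strata (genotype and stress), 223 of 24684 genes (0.903%) passed between the regions, and 0 of 27 members. Each slide held 1 region, and 0 genes passed with the slide as a random block, and 10 with normexp background correction. At an unadjusted p of 0.05 it was 10 of 27 members, 2 higher and 8 lower in NAc, against 15.4% of all genes. The 10 include Penk, higher in NAc, and Gja1, lower. Each passed the filter through 1 group alone, TLR-DKO NAc R-SDS and TLR-DKO mPFC R-SDS, which favoured these directions. The median log2 difference, NAc minus mPFC, was -0.34 over the 27 members and -0.06 over all genes tested, and the members' median was -0.16 without WT mPFC R-SDS replicate 3. By class, medians were -0.92 for 8 general neuronal genes, 0.19 for 4 striatal, -0.54 for 8 astrocyte and 0.37 for 6 oligodendrocyte genes, and the cortical gene Tbr1 stood at -0.94. The medians include Nefl, Penk, Gja1, S100b and Olig1, which passed the filter through 1 group only, so they are descriptions only.

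Gfap was lower in NAc by the smallest unadjusted p. Its lowest, median and highest levels were -3.16, -2.72 and -2.25 in NAc, against -2.97, -1.81 and 1.98 in mPFC. The NAc arrays lay within a band of under 1 unit, while 5 of 13 mPFC arrays, from WT naive, WT R-SDS and TLR-DKO naive mice, lay above 0. The difference was -1.64 ± 0.45 (SE; unadjusted p = 0.00142, adjusted p = 0.0784). It was -0.69 on scan day 1 and -2.90 on scan day 2, and the adjusted p was 0.637 with the slide as a random block, since each slide held 1 region. Without TLR-DKO mPFC naive replicate 2 it was -1.82 and passed (adjusted p = 0.0417). The other probes of Gfap, above background on 3 and 0 arrays, gave -0.09 and -0.10. Syn1 ran from -4.09 over -3.12 to -2.14 in NAc and from -3.37 over -2.13 to 0.11 in mPFC, where 4 arrays lay above every NAc array by over 1 unit. Its difference was -1.39 ± 0.38 (unadjusted p = 0.0016, adjusted p = 0.0853), with -1.59 and -0.99 within the scan days.

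Other astrocyte genes went both ways. Gja1 had -6.08, -5.77 and 0.23 in NAc, against -6.04, -2.55 and 0.24 in mPFC, a difference of -1.99 ± 0.70 (adjusted p = 0.182). None of the TLR-DKO NAc arrays had it above background, and it passed the filter through TLR-DKO mPFC R-SDS alone, which favoured this direction. Aldoc gave -1.05 ± 0.40 (adjusted p = 0.216). Ncan went the other way, with -1.78, -0.85 and 1.97 in NAc, against -2.20, -1.19 and 0.15 in mPFC, and a difference of 0.77 ± 0.26 (adjusted p = 0.167). Between WT NAc R-SDS and WT mPFC R-SDS it was 2.24 ± 0.53 (adjusted p = 0.324), with no overlap between the groups, and in the other strata it lay between 0.21 and 0.39.

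Among the tested members, which leave out Pdyn, Tac1 and Drd1, the striatal peptide gene Penk had the largest difference toward NAc. It passed the filter through TLR-DKO NAc R-SDS alone, which favoured differences from that group. It ran from -4.28 over -1.03 to 1.46 in NAc and from -5.86 over -4.20 to 0.97 in mPFC, a difference of 1.89 ± 0.64 (unadjusted p = 0.00751, adjusted p = 0.168). Between TLR-DKO NAc R-SDS (-1.03, -0.63, -0.43 and -1.03) and TLR-DKO mPFC R-SDS (-5.86, -4.41 and -4.47, none above background) it was at least 7.03-fold higher (adjusted p = 1.0). Ppp1r1b leaned the same way at 0.80 ± 0.51 (adjusted p = 0.464), but Adcy5 at -0.42 ± 0.17 (adjusted p = 0.242) and Drd2 at -0.61 ± 0.37 (adjusted p = 0.445) leaned toward mPFC. Camk2a and Tubb3 gave -0.94 ± 0.40 and -0.92 ± 0.40 (adjusted p = 0.27 and 0.28). Slc17a7, fitted without the filter, was at least 1.11-fold lower in NAc (unadjusted p = 0.00969, adjusted p = 0.247).

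Within single strata 0 of 27 members passed as well. Between naive WT groups 0 genes passed (0%), 5.14% had an unadjusted p under 0.05 and 1 member did (Gfap, -2.34). Penk was higher and Gfap lower in NAc without overlap there, against 5.47% and 6.07% of all genes. Between R-SDS WT groups 0.00405% of genes passed and 8.56% had an unadjusted p under 0.05, and 6 members did. Nefl was 1 of these, at -5.14, and it passed the filter through WT mPFC R-SDS alone, which favoured this direction. Olig1 and Ncan were higher and Syn1 and Camk2b lower in NAc without overlap, against 4.58% and 8.3%. Olig1 passed the filter through WT NAc R-SDS alone, which favoured its separation. Between naive TLR-DKO groups 0% passed and 8.01% had an unadjusted p under 0.05, with 2 members, Aqp4 (0.88) and Gfap (-2.41). Aqp4 was higher and Rbfox3 lower in NAc without overlap, against 2.5% and 5.68%. Between R-SDS TLR-DKO groups 0.00405% passed and 2.54% had an unadjusted p under 0.05, with 2 members, Penk and Gja1. Cnp and Penk were higher and Gja1 lower in NAc without overlap, against 2.15% and 2.84%, and Gja1 was at least 3.01-fold lower (adjusted p = 1.0). Penk and Gja1 each passed the filter through 1 of these groups alone, which favoured their separation.

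**Figure D3:**
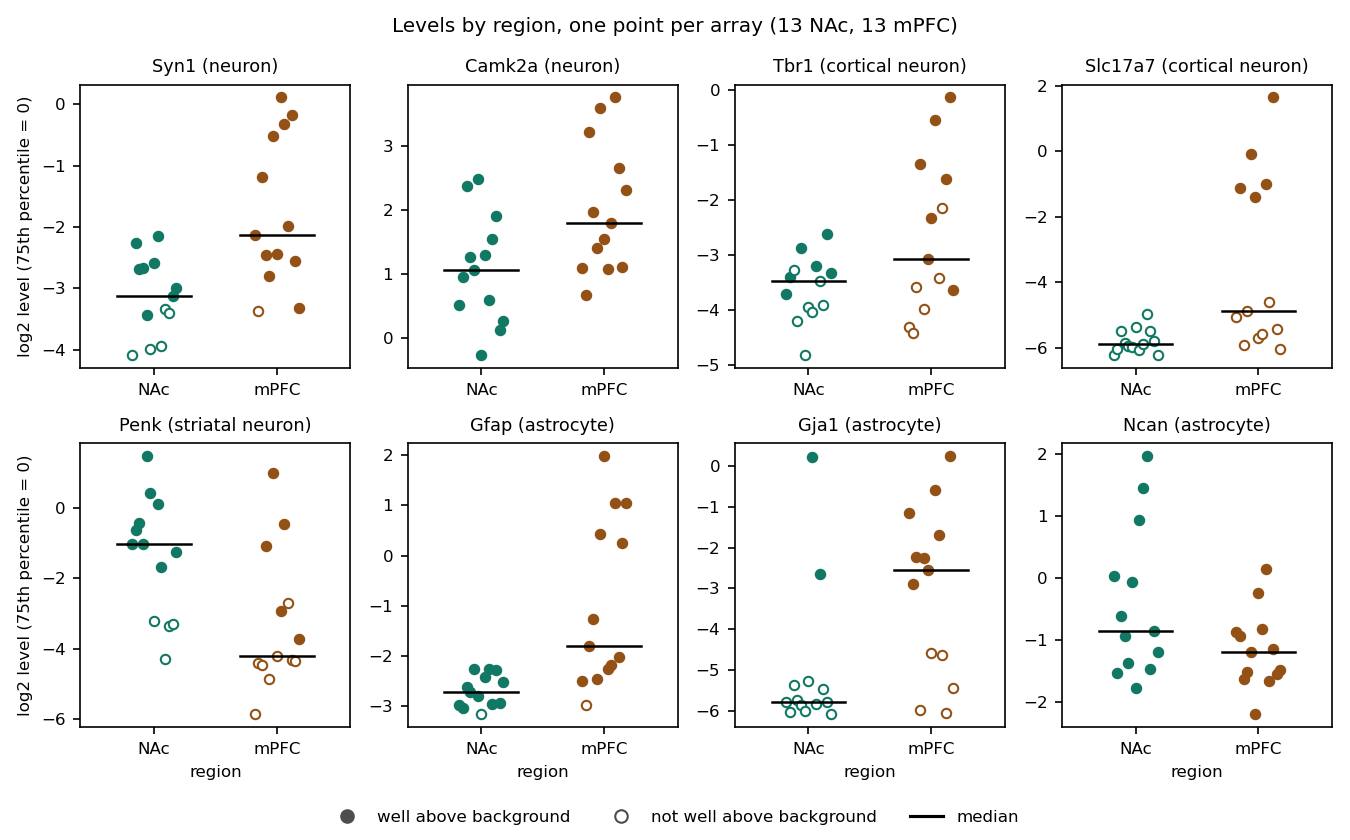
Log2 level of 8 members on 13 NAc and 13 mPFC arrays, one point per array with the median as a line; open points are not well above background. Most panels overlap widely between the regions, while Slc17a7 has filled points in mPFC only and Gfap exceeds 0 on 5 mPFC arrays and on no NAc array.

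Among 66 further neuronal and macroglial markers, 39 could be tested between the regions and 1 passed, lower in NAc. This was Neurod2, a transcription factor of cortical excitatory neurons. Its lowest, median and highest levels were 0.19, 0.53 and 1.07 in NAc, against 0.49, 1.47 and 1.95 in mPFC, with a difference of -0.76 ± 0.16 (adjusted p = 0.0291 in limma, and 0.505 with the slide as a random block). It passed in 20 of 26 fits with 1 array left out. At an unadjusted p of 0.05 it was 7 of the 39 (17.9%), all lower in NAc, near the 15.4% of all genes. Markers of other cells moved with region as well. Of 10 perivascular macrophage markers, 10 were lower in NAc, 8 of them at an unadjusted p under 0.05, and F13a1, a coagulation factor subunit of these macrophages, passed at -5.55 ± 0.97 (adjusted p = 0.0121, and 0.23 with the slide as a random block). The mean level of the list ran from -4.34 to -1.10 in NAc arrays and from -1.70 to 1.34 in mPFC arrays. Of 12 endothelial and mural markers, 7 were tested and Cldn5, a tight-junction protein of endothelium, passed at -0.93 ± 0.22 (adjusted p = 0.0454, and 0.543 with the slide as a random block), but in 4 of 26 fits with 1 array left out. The mean of the microglial list was 6.10 to 6.66 in NAc and 6.15 to 7.43 in mPFC. The mean of the red cell list was -2.73 to -1.84 in NAc and -2.27 to -1.25 in mPFC. The part of these cells in the regional values was not tested.

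The second comparison was of the members' levels after defeat stress and in naive mice. Averaged over the 4 strata, 0 of 24684 genes passed in limma (0%), and 1347 (5.46%) had an unadjusted p under 0.05. Of the 27 members, 4 did, all higher after R-SDS and all of astrocytes: Ncan, Slc1a2, Gja1 and Aldoc. Gja1 passed the filter through TLR-DKO mPFC R-SDS alone, which favoured this direction. Of the 8 astrocyte members 6 lay above 0 and 2 below, Gfap at -0.77 ± 0.45 (adjusted p = 0.938) and S100b at -0.29 ± 1.04 (adjusted p = 0.988). The median difference, R-SDS minus naive, was 0.20 over the members and 0.04 over all genes tested. By stratum, 0.0081% of genes passed in WT mPFC, 0% in TLR-DKO mPFC, 0% in WT NAc and 0.0081% in TLR-DKO NAc. At an unadjusted p of 0.05 it was 1 member in WT mPFC (5.91% of all genes), 3 in TLR-DKO mPFC (5.07%), 3 in WT NAc (2.91%) and 0 in TLR-DKO NAc (3.03%). The class medians of the average were 0.32 for neuronal, -0.43 for cortical (Tbr1 alone), 0.06 for striatal, 0.54 for astrocyte and 0.05 for oligodendrocyte genes.

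Ncan stood out in one stratum. In WT NAc it had levels of 0.94, 1.46 and 1.97 after R-SDS, against -1.47, -0.85 and -1.19 in naive mice, without overlap. The difference was 2.63 ± 0.53 (SE; unadjusted p = 7.52e-05), a 6.17-fold ratio, with an adjusted p of 0.702. Leaving out any 1 array kept it between 2.37 and 2.88, and it was 2.67 on slide 3 and 2.99 on slide 4. In TLR-DKO NAc the levels were 0.04, -1.53, -0.61 and -0.94 after R-SDS, against -1.37, -0.07 and -1.78 in naive mice, and these overlapped. The difference of differences, TLR-DKO minus WT, was -2.31 ± 0.73 (unadjusted p = 0.00475, adjusted p = 1.0). Over all strata the average was 0.92 ± 0.26 (adjusted p = 0.592). The 3 arrays of WT NAc R-SDS were also the highest 3 of all 26 for this gene.

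Slc1a2 had the largest average difference, at 2.52 ± 0.81 (unadjusted p = 0.00515, adjusted p = 0.771). In TLR-DKO mPFC its levels were 0.12, 2.00 and 2.77 after R-SDS, against -3.66, -3.61, 0.84 and -2.76 in naive mice, where 2 of 4 were not above background. The groups overlapped, and the difference was 3.93 ± 1.56 (adjusted p = 0.923). In WT NAc the levels were 2.61, 0.17 and -2.52, against -1.87, -1.0 and -4.08 in naive mice. In WT mPFC they were -1.25, 2.31 and 3.31, against 1.50, 1.47 and -3.29 in naive mice. In TLR-DKO NAc they were -0.86, 0.53, 1.80 and 0.84, against 1.58, -1.89 and -4.56 in naive mice, and here the difference of 2.20 turned to -1.74 on slide 3 alone. A second probe of Slc1a2, well above background on all 26 arrays, gave an average of 0.78 and 2.78 in WT NAc, but 0.28 in TLR-DKO mPFC and -1.49 in TLR-DKO NAc.

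Gja1 and Olig1 rested on few detected arrays, and Olig1 passed the filter through WT NAc R-SDS alone, which favoured its difference there. In WT NAc, Gja1 had 0.23, -5.83 and -2.64 after R-SDS, against -5.47, -5.79 and -6.08 in naive mice, none of these above background, so that R-SDS exceeded naive by a factor of at least 1.85 (adjusted p = 1.0). Olig1 had -2.99, -2.82 and 0.63 after R-SDS, against -5.45, -4.15 and -3.90 in naive mice, none above background, and exceeded them by a factor of at least 3.67 (unadjusted p = 0.0241, adjusted p = 1.0). In TLR-DKO NAc, Gja1 was not above background on any R-SDS or naive array. In TLR-DKO mPFC, Gfap had -2.50, -2.97 and -1.81 after R-SDS, against -1.27, -2.45, 0.43 and 1.98 in naive mice, a difference of -2.10 ± 0.86 (adjusted p = 0.925). Penk had no array above background in that stressed group and was at least 2.47-fold lower than in naive mice (-1.09, -4.85, 0.97 and -4.20; adjusted p = 0.968).

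The 8 tested neuronal genes had a mean level of 1.2 ± 0.89 in WT mPFC R-SDS, against -0.83 ± 0.79 in WT mPFC naive (SD, n = 3 each). They include Nefl, which passed the filter through that stressed group alone, so this mean is a description only. Replicate 3 of the stressed group, the array with the lowest weight, was the highest for the next 3 genes. Camk2b had 1.36, 0.84 and 5.55 after R-SDS, against 0.12, -5.35 (not above background) and -0.27 in naive mice, without overlap. The difference was 4.42 ± 1.65 (unadjusted p = 0.0144, adjusted p = 0.83). It was 2.93 without WT mPFC R-SDS replicate 3 and 2.66 without WT mPFC naive replicate 2, and the second probe gave 1.48. Nefl had -0.07, 1.22 and 4.10 after R-SDS, against -6.00, -5.28 and 2.14 in naive mice, a difference of 4.80 ± 2.43 (adjusted p = 0.83) between overlapping groups, and of 3.63 without replicate 3. The naive values of -6.00 and -5.28 were not above background, so the size of this difference is uncertain. Rbfox3 had -2.10, -2.26 and 0.29, against -2.11, -2.48 and -2.17 in naive mice, and its difference of 0.90 ± 0.47 (adjusted p = 0.83) was 0.07 without replicate 3. In TLR-DKO NAc, Camk2b had 0.92, 0.22, 1.59 and -0.11 after R-SDS, against -5.87, -0.06 and 0.49 in naive mice, a difference of 2.47 ± 1.55 (adjusted p = 1.0). It was 0.44 without TLR-DKO NAc naive replicate 1, whose -5.87 was not above background, and the second probe gave 0.14. Aldoc there had 2.42, 2.48, 2.00 and 2.23, against 0.26, 2.32 and 1.06, a difference of 1.07 ± 0.78 (adjusted p = 1.0).

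**Figure D4:**
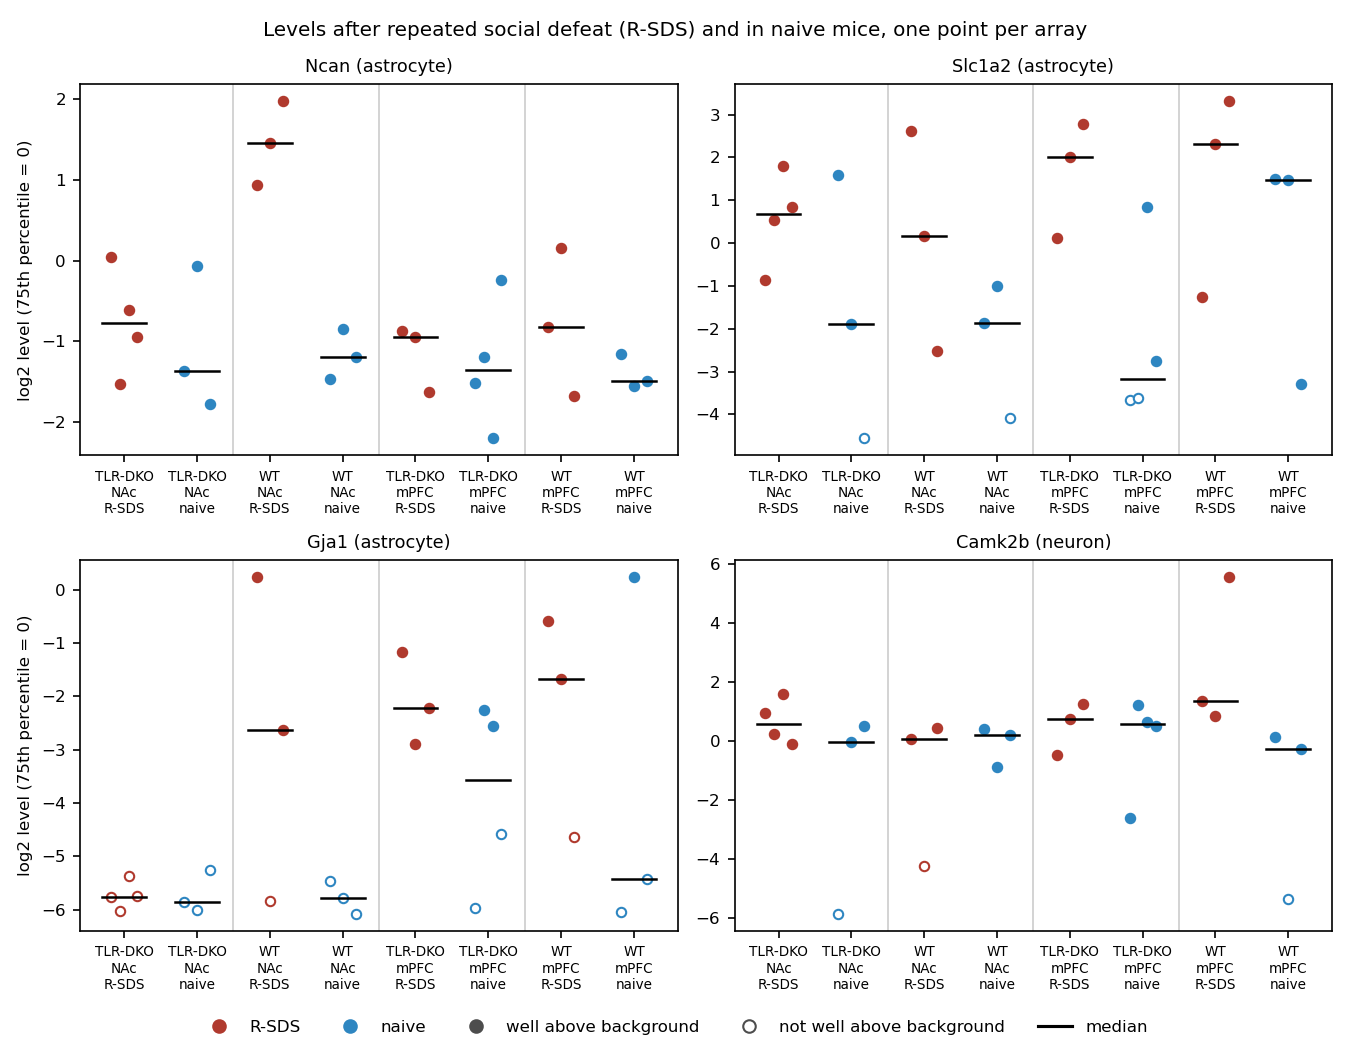
Log2 level of 4 members in each genotype and region, R-SDS left of naive, one point per array with the group median as a line; open points are not well above background. Ncan separates in WT NAc (0.94 to 1.97 after R-SDS, against -1.47 to -0.85 in naive mice). Camk2b separates in WT mPFC (0.84 to 5.55, against -5.35 to 0.12, where -5.35 is an open point). The panels other than Ncan are wide or hold open points.

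Within strata, the share of genes with no overlap between groups gives the background for such separations. In WT mPFC, 4 of 27 members were higher on every R-SDS array than on every naive array (Map2, Penk, Tubb3 and Camk2b), against 5.04% of all genes, and 0 were lower, against 3.04%. In WT NAc, Olig1 and Ncan were higher (4.48% of all genes) and Mbp lower (3.68%). Olig1 passed the filter through WT NAc R-SDS alone, which favoured its separation. In TLR-DKO mPFC, Aqp4 was higher (2.14%) and 0 were lower (4.09%), and in TLR-DKO NAc it was 0 in both directions (2.11% and 2.1%). In stressed WT mPFC the median of all 27 members was 0.62, against 0.17 for all genes. The 27 include Nefl, at 4.80, which passed the filter through WT mPFC R-SDS alone, so this median is a description only. The members' median was 0.42 without replicate 3 of the stressed group. WT mPFC held 27, 30 and 24 detected members after R-SDS, against 23, 23 and 29 in naive mice. The endothelial and mural list had a mean of -1.0 ± 0.66 there, against -1.84 ± 0.44 in naive mice (SD, n = 3 each). In TLR-DKO mPFC the microglial list had means of 6.15 to 6.36 after R-SDS, against 6.42 to 6.63 in naive mice. Whether these lists bear on the members' values was not tested.

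Of the 66 further markers, 0 of the 39 tested passed between R-SDS and naive mice in limma. Only 1 of the 39, an astrocyte gene, had an unadjusted p under 0.05, against 5.46% of all genes. The median over them was 0.08, against 0.04 over all genes tested. Of the 7 further astrocyte genes tested, 5 lay above 0 and 2 below.

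The third comparison was of the members' levels in TLR-DKO and WT samples. Averaged over 4 strata, 5 genes of 24684 (0.0203%) passed, and 0 of 27 members. At an unadjusted p of 0.05 it was 5 of 27 members (Aqp4, Olig1, Tbr1, Ncan and Rbfox3), all lower in TLR-DKO, against 8.22% of all genes. Olig1 passed the filter through WT NAc R-SDS alone, which favoured this direction. The median difference, TLR-DKO minus WT, was -0.31 over the members and -0.09 over all genes tested. Leaving out 1 array moved the members' median between -0.34 and -0.08, the value nearest 0 without TLR-DKO mPFC R-SDS replicate 1.

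Aqp4 had the smallest p. Its lowest, median and highest levels were -0.55, 0.12 and 1.01 in TLR-DKO arrays, against -0.09, 0.89 and 1.72 in WT arrays, and the groups overlapped. The difference was -0.66 ± 0.17 (SE; unadjusted p = 0.00106, adjusted p = 0.311), with -0.52 on scan day 1 and -0.79 on scan day 2. In naive mPFC it was -0.78 ± 0.34, with levels of -0.19, -0.55, -0.23 and -0.23 in TLR-DKO, all below the WT levels of 0.88, 0.64 and -0.09. In R-SDS mPFC it was -0.91 ± 0.36, with 0.08, 0.29 and 0.20 in TLR-DKO, all below 1.08, 0.49 and 1.72 in WT. The adjusted p was 0.84 and 0.789. In NAc the levels overlapped for both treatments. The second Aqp4 probe gave -0.72 on average, near the first.

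Olig1 was well above background on 2 of 14 TLR-DKO arrays and 5 of 12 WT arrays, with a difference of -1.51 ± 0.55 (adjusted p = 0.464). In R-SDS NAc it had -6.17, -5.98, -5.48 and -2.47 in TLR-DKO, against -2.99, -2.82 and 0.63 in WT, the only group through which it passed the filter. Tbr1 was above background on 6 of 14 TLR-DKO arrays and 7 of 12 WT arrays, with -0.91 ± 0.38 (adjusted p = 0.548). Its second probe, above background on 16 arrays, gave -0.45. In R-SDS mPFC it had -4.31, -4.43 and -3.59 in TLR-DKO, none above background, against -0.55, -3.43 and -2.16 in WT. It was at least 2.86-fold lower there, and Penk at least 2.96-fold lower (adjusted p = 0.789 for both). Ncan gave -0.60 ± 0.26 on average (adjusted p = 0.564) and -2.22 ± 0.50 in R-SDS NAc (unadjusted p = 0.000233, adjusted p = 0.957). The R-SDS NAc comparison shares its WT NAc R-SDS arrays with the stress comparison above. By stratum, 0.0122% of genes passed in naive mPFC, in R-SDS mPFC and in naive NAc, and 0.0081% in R-SDS NAc. At an unadjusted p of 0.05 it was 1 member in naive mPFC (5.68% of all genes), 4 in R-SDS mPFC (5.83%), 0 in naive NAc (3.3%) and 3 in R-SDS NAc (4.01%). In naive mPFC, Map2 was higher (3.1% of all genes) and Aqp4 lower (2.61%) in TLR-DKO without overlap. In naive NAc, Slc1a3 was higher (3.52%) and Tubb3 lower (3.87%). In R-SDS NAc, Mbp was higher (2.1%) and Snap25 and Ncan lower (5.07%). In R-SDS mPFC, 4 members were lower in TLR-DKO without overlap (Mobp, Aqp4, Penk and Tbr1), against 6.15% of all genes, and 0 were higher, against 3.05%.

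Of the 66 further markers, 39 were tested between genotypes and 0 passed in limma. Of the 39, 4 had an unadjusted p under 0.05, all lower in TLR-DKO, against 8.22% of all genes. The median over the 39 was -0.32, against -0.09 over all genes tested. Among the microglial markers, Fcrls, a receptor-like protein of microglia, passed at -1.17 ± 0.19 (adjusted p = 0.0317), and in 10 of 26 fits with 1 array left out, with levels of 4.27, 5.36 and 5.99 in TLR-DKO, against 5.80, 6.31 and 7.13 in WT. The mean of the microglial list was 6.10 to 6.66 in TLR-DKO and 6.14 to 7.43 in WT arrays. Its part in the members' values was not tested.

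**Figure D5:**
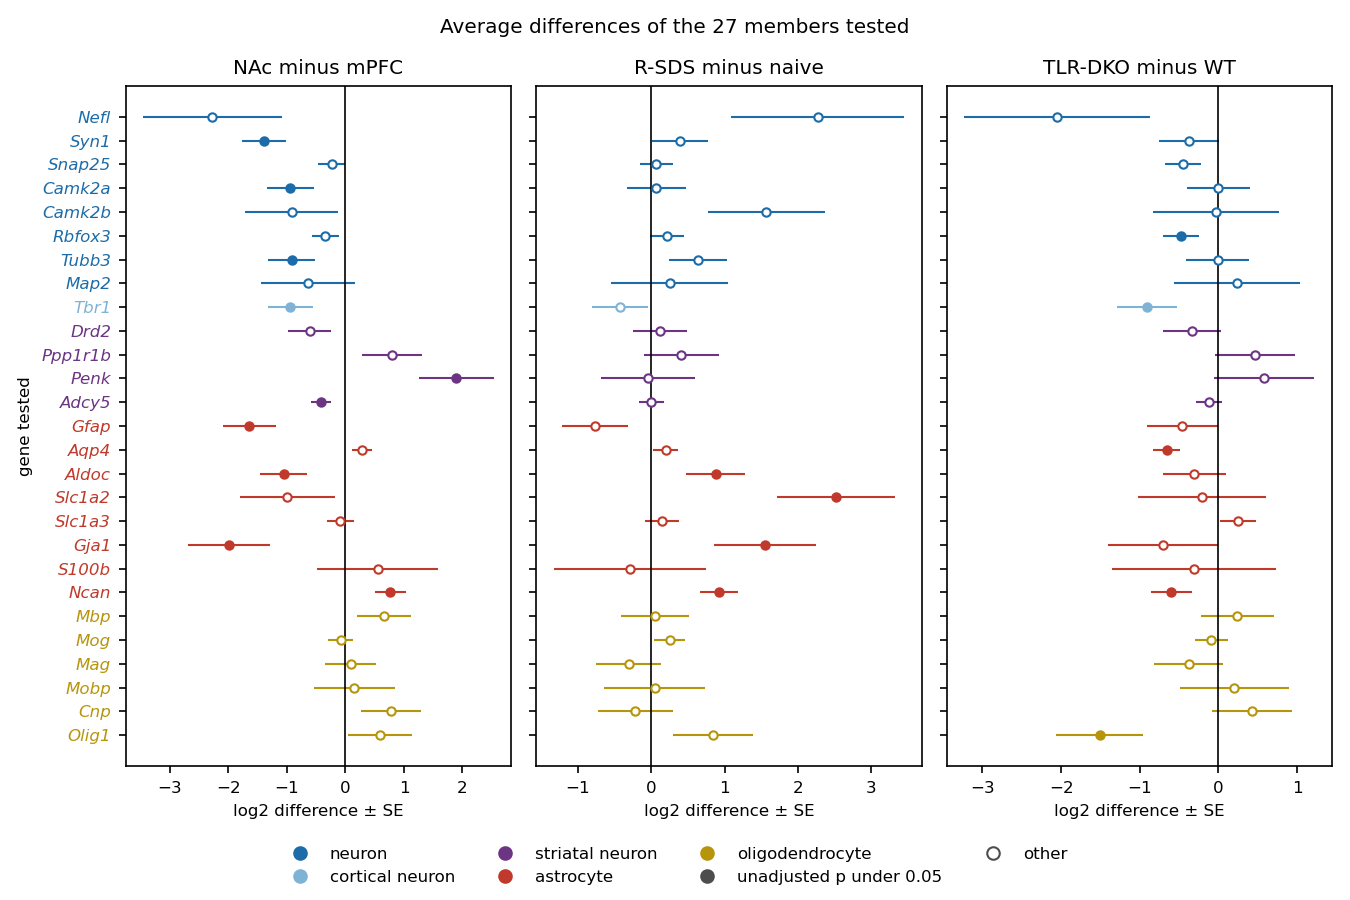
Log2 differences with standard errors of the 27 tested members, averaged over 4 strata, for NAc minus mPFC, R-SDS minus naive and TLR-DKO minus WT; filled points have an unadjusted p under 0.05 and none has an adjusted p under 0.05. The errors reach 1.18 for Nefl, which passed the filter through WT mPFC R-SDS alone. Without the filter, the median of the 13 neuronal genes was -0.64 between the regions, against -0.08 over all genes. Between the treatments it was 0.25, against 0.05. The 13 include Nefm, Syt1, Stmn2, Gad1 and Gad2, which were not well above background on most arrays.

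The response to stress was also compared between genotypes. In both regions 0 of 27 members and 0 of all genes passed in limma (0%). At an unadjusted p of 0.05 it was 2 members in mPFC, against 6.08% of all genes, and 1 in NAc, against 2.5%. In mPFC these were Map2, at -5.25 ± 2.26, and Penk, at -4.72 ± 1.80 (adjusted p = 0.811 for both), and in NAc it was Ncan. Map2 had -6.21, -5.43 and -0.50 in TLR-DKO mPFC R-SDS, against -2.23, -2.58, -0.41 and -1.76 in naive mice. It had -2.18, -0.75 and -1.12 in WT mPFC R-SDS, against -6.12, -4.15 and -2.62 in naive mice. The TLR-DKO groups overlapped and the WT groups did not. The Map2 values of -6.21 and -5.43 in TLR-DKO R-SDS and of -6.12 and -4.15 in WT naive were not above background. The size of this difference between responses is therefore uncertain. A second Map2 probe gave stress differences of -0.29 in TLR-DKO mPFC and 1.43 in WT mPFC, against -2.30 and 2.95 for the first.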

How the data were processed

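The 26 samples were hybridised to single-colour Agilent mouse arrays. The deposited scanner files hold spot intensity on a linear scale, background-subtracted in the processed signal. Per the file headers, the scanner software was Feature Extraction 11.0.1.1. The deposited matrix holds log2 values. Its columns had medians of -2.9 to -2.2, an r of 1 with the log2 scanner values less the 75th percentile of each array, and median offsets from them of at most 0.0602, so it is on that scale with the same direction and centring, and it served as an alternative. Flags for well above background are those of the same deposited files.

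Of 62976 spots per array, 59305 were not controls, on 55681 probes. After leaving out 108 probes flagged as outliers, 55573 remained, none saturated. For 29744 probes with a RefSeq accession, 27974 were named through a table of the GRCm38.p6 assembly, and the other 27599 probes kept their own identity. Log2 processed signal minus each array's 75th percentile was fitted by group means in limma 3.58.1 (R 4.3.3), with Benjamini-Hochberg adjustment over 24684 genes. Replicate arrays had a median SD of 0.761 (log2). The fit was tested on simulated data.

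The members and lists were chosen with earlier results of these data known. Genes given array by array were the 3 highest-signal members of each class and the 3 with the smallest p in each averaged comparison and each stress stratum; others of the members named were chosen after their values were seen. The 4 slides, each of 1 region, and 2 scan days served as blocks. Where the files held no mean signal, normexp correction used the median signal instead, an alternative chosen after seeing the data. No probe sequence is printed, since the sources used here hold none for these probes.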

Additional observations from a re-analysis of the deposited data

Results flagged for a closer look

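Dixon's test was run in the 2 groups with 4 arrays on the levels of the 37 members, the 5 class means and the number of members detected, 86 tests in all, and 8 ratios of gap to range exceeded the critical value for groups of 4; chance alone flags about 1 in 20 groups. In TLR-DKO mPFC naive, the ratio was 0.843 for Syn1 (replicate 3 at -0.52, the nearest array at -2.44). It was 0.859 for Rbfox3 (replicate 1 at -1.75, the nearest at -2.32) and 0.838 for Tac1 (replicate 4 at -2.30, the nearest at -5.27). It was 0.873 for Aqp4 (replicate 2 at -0.55, the nearest at -0.23) and 0.884 for Aldoc (replicate 1 at 1.54, the nearest at 2.85). In TLR-DKO NAc R-SDS, the ratio was 0.895 for Nefl (replicate 4 at 0.56, the nearest at -5.46), 0.927 for Map2 (replicate 1 at -6.25, the nearest at -1.89) and 0.843 for Mog (replicate 4 at -1.85, the nearest at -0.47). The 8 values came from 6 arrays, and no array gave more than 2.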

How the results depend on the processing

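The count of members called was 0 in 433 combinations of the 17 comparisons with an alternative and 1 in the remaining 6. Between the regions on average, this was Gfap (-1.72, adjusted p = 0.0467) with scan day as a block, Syn1 (-1.55, adjusted p = 0.0345) with array weights, and Gfap (-1.82, adjusted p = 0.0417) without TLR-DKO mPFC naive replicate 2. Leaving out each array in turn gave 0 to 1 members for that comparison and 0 to 0 for each other one. On 1 scan day alone it was 1 for Cnp in stressed against naive WT mPFC and in stressed WT NAc against stressed WT mPFC (day 2), and 1 for Olig1 in TLR-DKO against WT naive mPFC (day 1). The stress difference of Slc1a2 in TLR-DKO NAc reversed to -1.74 on slide 3 alone and to -1.74 on scan day 1 alone; the cause was not tested. All genes called between the regions on average numbered 223, against 10 with normexp correction, 448 with scan day as a block, 450 with array weights, 0 with the slide as a random block, 0 and 1 on scan days 1 and 2 alone, 136 without the filter, 79 without 2 outlying arrays and 63 to 370 with 1 array left out. Same-numbered arrays had correlations of their deviations from -0.14 to 0.24. The labels used here do not say whether the numbers pair the samples. These correlations cannot decide it, since differently numbered arrays were not compared. The replicate block gave 0 members called in each comparison. The filter on dim probes left out 10 members, and 0 of 37 were called without it.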
